A study of Rattus norvegicus with 12 samples.

Results

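The unfolded protein response genes of the endoplasmic reticulum were followed in cells labelled as primary rat cardiomyocytes and exposed to 3-morpholinosydnoimine (SIN-1). SIN-1 gives off superoxide and nitric oxide as it decays and so serves as a donor of the oxidant peroxynitrite. The genes were chosen by name. Of 32 symbols of sensors, chaperones, folding enzymes, translocon subunits and degradation factors, 31 had a probe with that single symbol, out of 18166 named genes in all. Derl2 was not analysed here. Each of the 31 was measured by 1 probe.

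RNA came from control cells and from cells treated with SIN-1 for 70 min, 4 h or 8 h, with 3 arrays in each of the 4 groups. All cells are labelled wild type and were grown in the same medium with fetal bovine and horse serum. The series describes biological triplicates without saying whether cultures or animals were separate, so p-values measure the spread between these arrays. The SIN-1 dose, a vehicle, the donor rats' age and the control's culture time are not among the labels, and every treated group was compared with the same 3 control arrays.

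Newly made secreted and membrane proteins enter the endoplasmic reticulum through the SEC61 channel and fold there with the help of chaperones such as BiP, the product of Hspa5. When unfolded proteins build up, the membrane sensors ATF6, IRE1 (Ern1) and PERK (Eif2ak3) signal to the nucleus. ATF6 and the spliced form of XBP1 raise the genes of chaperones and of the machinery that returns misfolded proteins to the cytosol for destruction, while PERK slows translation and favours the factor ATF4. The arrays gave transcript levels, not the cleavage of ATF6, the splicing of Xbp1 or the activity of a sensor.

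The values are log2 expression. Between arrays of the same group the correlation over genes lay between 0.9906 and 0.9950, and array medians over all probes were 4.98 to 5.12, being highest in 70 min replicates 2 and 3 and 4 h replicate 3. The labelled cell type was checked against marker genes. Of 14 cardiomyocyte markers, 10 had a mean over all arrays below the median gene (5.75), and the myosin heavy chain genes Myh6 (3.78) and Myh7 (3.57) and the ryanodine receptor gene Ryr2 were also below the median of the 17599 probes without a name (4.33). The 4 above the median gene were the sarcomere genes Tnnt2 (5.84) and Ldb3 (6.22) and the calcium-handling genes Casq2 (7.19) and Pln (7.94). Of 12 fibroblast markers only 3 were below it, and Col1a1 (12.77) and Postn (11.62) were far above it. Of 6 smooth muscle and pericyte markers 2 were below the median gene, and Tagln (12.46) and Pdgfrb (10.19) were far above it. All 7 endothelial markers and 9 of 10 macrophage and leukocyte markers were below it. The labelled cell type is thus not borne out by most of the 14 cardiomyocyte markers, while many fibroblast and smooth muscle markers were high. The mix of cells was not tested.

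Promoters of this gene family are known for the ER stress response element (ERSE), in which CCAAT is followed after 9 bases by CCACG and which is bound by the factor NF-Y together with ATF6 or XBP1. A variant, ERSE-II, has ATTGG, 1 base and CCACG. In RefSeq windows of 300 bases on assembly GRCr8, of which 250 bases lay before the gene's start, ERSE was found on either strand in 22 of 33469 windows (0.0657%) and ERSE-II in 17 (0.0508%). Of the 31 genes 23 had a window, and 9 of these held ERSE (39.1%) and 3 held ERSE-II (13%). Atf6, Derl1, Ern1, Ero1a, Manf, Pdia3, Pdia6 and Sec61a1 were not matched to a window. The letters CCACG alone, which both elements contain, were in 31.6% of all windows and in 20 of the 23. The core of another element of the response, UPRE, written TGACGTGG, was in 0.595% of all windows and in 1 of the 23, that of Hyou1, where it overlaps an ERSE-II.

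Stretches around these elements are shown on the strand of the gene, with both parts of the element in capitals. On the opposite strand ERSE reads CGTGG, 9 bases and ATTGG. The first 3 belong to genes that changed at 70 min. The last 3, chosen after their values were seen, belong to genes that hold an ERSE and did not pass the test in any comparison.
Hspa5: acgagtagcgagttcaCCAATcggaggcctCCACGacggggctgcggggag
Xbp1: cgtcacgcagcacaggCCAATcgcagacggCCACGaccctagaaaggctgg
Herpud1: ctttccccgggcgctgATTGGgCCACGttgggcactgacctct
Hsp90b1: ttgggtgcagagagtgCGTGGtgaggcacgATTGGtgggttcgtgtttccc
Calr: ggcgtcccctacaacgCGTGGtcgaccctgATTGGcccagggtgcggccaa
Canx: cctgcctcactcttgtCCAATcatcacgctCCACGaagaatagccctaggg

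The stretch of Hspa5 is chr3:38452957-38453007 (plus strand), and its element runs from 43 to 25 bases before the start. That of Xbp1 is chr14:84604542-84604592 (plus strand), with the element 65 to 47 bases before the start. The ERSE-II of Herpud1, in chr19:10614805-10614847 (minus strand), lies 124 to 114 bases before the start. The stretch of Hsp90b1 is chr7:23012331-23012381 (minus strand) and holds the nearer of 2 elements, 72 to 54 bases before the start. Those of Calr, chr19:40213119-40213169 (plus strand), and Canx, chr10:35158053-35158103 (minus strand), hold elements that begin 232 and 230 bases before the start.

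After 70 min of SIN-1 a subset of the response was higher. The risers were the sensor genes Eif2ak3 and Atf6, the transcription factor gene Xbp1, the chaperone gene Hspa5, its partner Manf, the oxidase gene Ero1a, the channel gene Sec61a1 and the degradation factor Edem1, and they rose by 1.29-fold to 1.49-fold. Herpud1 and Sel1l, which act in the degradation complex, fell. Thus 8 of 31 (25.8%) were called higher by limma, at an adjusted p under 0.05 over all 18166 genes, against 6.76% of all genes, and 2 (6.45%) were called lower against 7.81%. These shares of all genes, here and below, include genes of low level, while 29 of the 31 were at or above the median gene (5.75). With only genes at or above it fitted, 1231 were called higher and 1518 lower, beside 1228 and 1419 of all 18166. The share among brighter genes is thus larger, and in that fit 10 of these 29 were higher and 2 lower. The median log2 difference of the 31 genes was 0.12, beside 0.03 for all genes, and 24 of the 31 lay above 0. Treated and control arrays did not overlap for 15 genes that were higher and 4 that were lower, against 16.8% and 15.0% of all genes.

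Some cell type markers also moved at this time, when 6.76% of all genes were called higher and 7.81% lower. The fibroblast markers Lum, Dcn and Col3a1 fell by 1.42, 1.05 and 0.41 in log2 expression, 3 of 12, and the mean level of the 12 was 8.34 to 8.49 in the 70 min arrays against 8.63 to 8.67 in control. The log2 of their summed level was 14.29 to 14.35 against 14.43 to 14.46. The other fibroblast markers did not pass and lay between -0.20 (Pdgfra) and 0.24 (Tcf21). Of the 14 cardiomyocyte markers 0 passed at 70 min, at a mean level of 5.09 to 5.34 against 5.09 to 5.20 in control and a summed level of 9.68 to 9.72 against 9.61 to 9.71. Of 7 endothelial markers, all below the median gene, 1 fell (Tek, at -0.88), 1 of 6 smooth muscle and pericyte markers rose (Tagln, 0.13), and 0 of 10 macrophage and leukocyte markers passed. In lists of this size 1 marker called in a direction is near the share over all genes. At 4 h, when 1.77% of all genes were called lower, Col3a1, Pln and Pdgfrb, a pericyte marker, fell by 0.18, 0.44 and 0.49. At 8 h 0 markers of these 5 lists passed. The part of these shifts in the results was not tested, and in bulk RNA fewer cells of a type and less RNA per cell cannot be told apart.

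**Figure D1:**
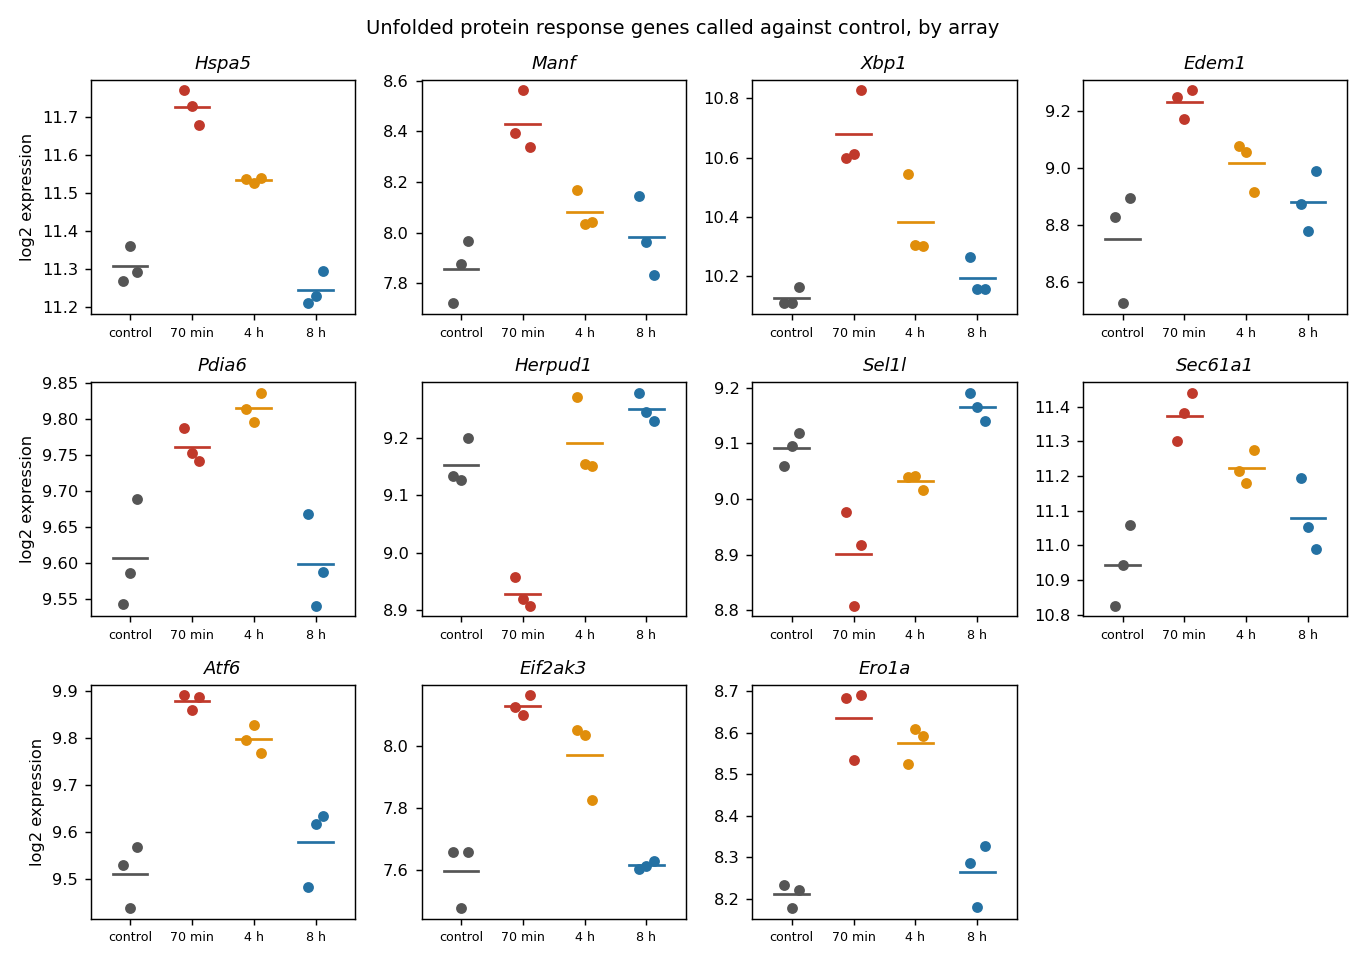
Log2 expression of the 11 genes called against control at 70 min or 4 h, by group (control, then SIN-1 for 70 min, 4 h and 8 h). Points are single arrays, bars are means of 3 arrays, and each panel has its own scale, which does not start at 0. Hspa5 had a mean of 11.31 in control, 11.73 at 70 min and 11.24 at 8 h, while Herpud1 was lowest at 70 min (8.93).

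Among the sensors, Eif2ak3, which encodes PERK, was at 7.66, 7.48 and 7.66 in the control arrays, 8.13, 8.10 and 8.16 at 70 min, 8.05, 8.04 and 7.83 at 4 h, and 7.60, 7.62 and 7.63 at 8 h. Every array of 70 min and 4 h was above every control array, and the 8 h arrays lay within the control range. The difference from control was 0.53 ± 0.08 (SE) at 70 min and 0.37 ± 0.08 at 4 h (limma adjusted p = 0.00022 and 0.0143).
Atf6, whose product is cut in the Golgi to free a transcription factor, stood at 9.53, 9.44 and 9.57 in the control arrays, 9.89, 9.86 and 9.89 at 70 min, 9.80, 9.83 and 9.77 at 4 h, and 9.49, 9.62 and 9.64 at 8 h. It was likewise above control in all arrays of the earlier times, by 0.37 ± 0.06 and 0.28 ± 0.06 (SE, limma adjusted p = 0.000248 and 0.00751).
Ern1, which encodes IRE1, the sensor and nuclease that splices Xbp1, was at 6.78, 6.70 and 6.74 in the control arrays, 6.82, 6.69 and 6.75 at 70 min, 6.80, 6.74 and 6.68 at 4 h, and 6.67, 6.70 and 6.76 at 8 h. All groups overlapped. Its difference at 70 min was 0.02, with a 95% interval of -0.17 to 0.20, which does not reach the estimates for Eif2ak3 and Atf6. The difference between these genes was not tested.

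Xbp1, the transcription factor gene whose messenger IRE1 splices, was at 10.11, 10.11 and 10.16 in the control arrays, 10.60, 10.61 and 10.83 at 70 min, 10.55, 10.31 and 10.30 at 4 h, and 10.27, 10.16 and 10.16 at 8 h. The 70 min arrays were all above the others, 1.47-fold over control on average (0.55 ± 0.07, SE, limma adjusted p = 4.63e-05). At 4 h all arrays lay above the control arrays, but the difference of 0.26 ± 0.07 did not pass (adjusted p = 0.0553); it passed in 6 of 24 alternatives.

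Hspa5 encodes the chaperone that holds the sensors inactive until unfolded proteins draw it away. It was at 11.27, 11.36 and 11.29 in the control arrays, 11.77, 11.73 and 11.68 at 70 min, 11.54, 11.53 and 11.54 at 4 h, and 11.21, 11.23 and 11.30 at 8 h. The 70 min arrays were highest and the 4 h arrays next, with no overlap between these or with control, and 8 h overlapped control. The differences were 0.42 ± 0.04 (SE) at 70 min and 0.23 ± 0.04 at 4 h (limma adjusted p = 2.9e-06 and 0.004).
Manf, a protein of the endoplasmic reticulum that can be secreted and that binds the product of Hspa5, was at 7.72, 7.88 and 7.97 in the control arrays, 8.39, 8.56 and 8.34 at 70 min, 8.17, 8.03 and 8.04 at 4 h, and 8.15, 7.97 and 7.83 at 8 h. It had the largest rise of the 31 genes at 70 min, 1.49-fold (0.57 ± 0.09, SE, limma adjusted p = 0.000409). At 4 h all arrays were above control, and the difference of 0.23 ± 0.09 did not pass (adjusted p = 0.247).
The other 7 genes of this chaperone group did not pass against control at any time. At 70 min the J-domain partners Dnajb9, Dnajb11 and Dnajc3 were at 0.21, 0.15 and 0.21, each with all treated arrays above control (limma adjusted p = 0.138, 0.197 and 0.0732). Hyou1, a large HSP70 relative, was at 0.12 and Sdf2l1, which works with J-domain partners, at 0.08. The HSP90 gene Hsp90b1 was at 0.00, with a 95% interval of -0.14 to 0.13. Sil1, the nucleotide exchange factor for the product of Hspa5, stood at -0.24 ± 0.12 (SE) with all 70 min arrays below control (limma adjusted p = 0.219).

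The calcium-binding lectin chaperones Calr and Canx, which hold glycoproteins during folding, were at 0.06 and 0.05 at 70 min. Their 95% intervals ran from -0.04 to 0.16 and from -0.10 to 0.20, so a rise of the size of that of Hspa5 (0.42) lies outside both.

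Of the enzymes that form disulfide bonds, Ero1a, the oxidase that recharges protein disulfide isomerases, was at 8.23, 8.18 and 8.22 in the control arrays, 8.68, 8.53 and 8.69 at 70 min, 8.52, 8.61 and 8.59 at 4 h, and 8.29, 8.18 and 8.33 at 8 h. Arrays of 70 min and 4 h overlapped each other and lay above all others. The differences from control were 0.43 ± 0.07 and 0.36 ± 0.07 (SE, limma adjusted p = 0.000423 and 0.00564).
Its relative Ero1b was at 5.69, 5.44 and 5.40 in the control arrays, 5.40, 5.08 and 5.18 at 70 min, 5.49, 6.05 and 5.46 at 4 h, and 5.73, 5.77 and 5.89 at 8 h. All 70 min arrays were at or below the lowest control array, but the value of -0.29 ± 0.15 (SE) did not pass (limma adjusted p = 0.229), and the mean of Ero1b over all arrays was below the median gene.
Pdia6, a disulfide isomerase, was at 9.54, 9.59 and 9.69 in the control arrays, 9.79, 9.75 and 9.74 at 70 min, 9.81, 9.80 and 9.84 at 4 h, and 9.67, 9.54 and 9.59 at 8 h. It was above control in all 70 min arrays without passing (0.15 ± 0.06, SE, limma adjusted p = 0.0764), and passed at 4 h, the time of its highest mean (0.21 ± 0.06, adjusted p = 0.0465).
The isomerases Pdia3, Pdia4 and P4hb were at 0.03, 0.00 and -0.01 at 70 min, and their 95% intervals reached at most 0.11, 0.13 and 0.07. Creld2 was at 0.18 and the prolyl isomerase gene Fkbp2 at -0.04, neither passing.

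In the protein channel of the membrane, Sec61a1, which encodes the pore subunit, was at 10.83, 10.94 and 11.06 in the control arrays, 11.30, 11.38 and 11.44 at 70 min, 11.21, 11.18 and 11.27 at 4 h, and 11.19, 11.05 and 10.99 at 8 h. There was no overlap with control at 70 min or 4 h. It rose by 0.43 ± 0.06 (SE) at 70 min and by 0.28 ± 0.06 at 4 h (limma adjusted p = 0.000129 and 0.0163). The small subunit gene Sec61b was above control in all arrays of these times, at 0.12 and 0.14, without passing (adjusted p = 0.115 and 0.158).

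Of the 6 degradation genes, 1 was called higher and 2 lower at 70 min. Over the 31 genes the share called lower (6.45%) was below that of all genes (7.81%). Edem1, which encodes a lectin that helps select misfolded glycoproteins for removal, was at 8.83, 8.53 and 8.89 in the control arrays, 9.25, 9.17 and 9.27 at 70 min, 9.08, 9.06 and 8.92 at 4 h, and 8.88, 8.78 and 8.99 at 8 h. It rose by 0.48 ± 0.09 (SE, limma adjusted p = 0.00107) at 70 min, and at 4 h, with all arrays above control, it was at 0.27 (adjusted p = 0.12).
Herpud1, which helps assemble the degradation complex, was at 9.13, 9.13 and 9.20 in the control arrays, 8.96, 8.92 and 8.91 at 70 min, 9.27, 9.15 and 9.15 at 4 h, and 9.28, 9.24 and 9.23 at 8 h. Its 70 min arrays were below all others, and it fell by 0.22 (SE 0.06, limma adjusted p = 0.014).
Sel1l, the partner of the ubiquitin ligase encoded by Syvn1, was at 9.06, 9.10 and 9.12 in the control arrays, 8.98, 8.81 and 8.92 at 70 min, 9.04, 9.04 and 9.02 at 4 h, and 9.19, 9.17 and 9.14 at 8 h. It fell by 0.19 (SE 0.06, limma adjusted p = 0.0403), again with the 70 min arrays below the rest.
Syvn1 itself was at 0.23, Derl1 at 0.09 and Derl3, whose mean was below the median gene, at 0.39 ± 0.15 (SE), none passing (limma adjusted p = 0.119, 0.581 and 0.102).

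The 8 rises at 70 min passed in all 24 alternatives, with adjusted p-values of at most 0.0395 (Edem1). Some alternatives, such as the mean of a gene's probes or fits without a 4 h or 8 h array, left these estimates unchanged. They bore only on the spread or the adjustment. The falls did not hold so widely. Sel1l did not pass without any one of control replicates 1, 2 or 3, 70 min replicates 2 or 3, or 8 h replicate 2 (adjusted p up to 0.528 over all alternatives), and Herpud1 did not pass without control replicate 3 or 70 min replicate 3 (up to 0.229 over all alternatives). The count of 2 genes lower was then 0 to 1.

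**Figure D2:**
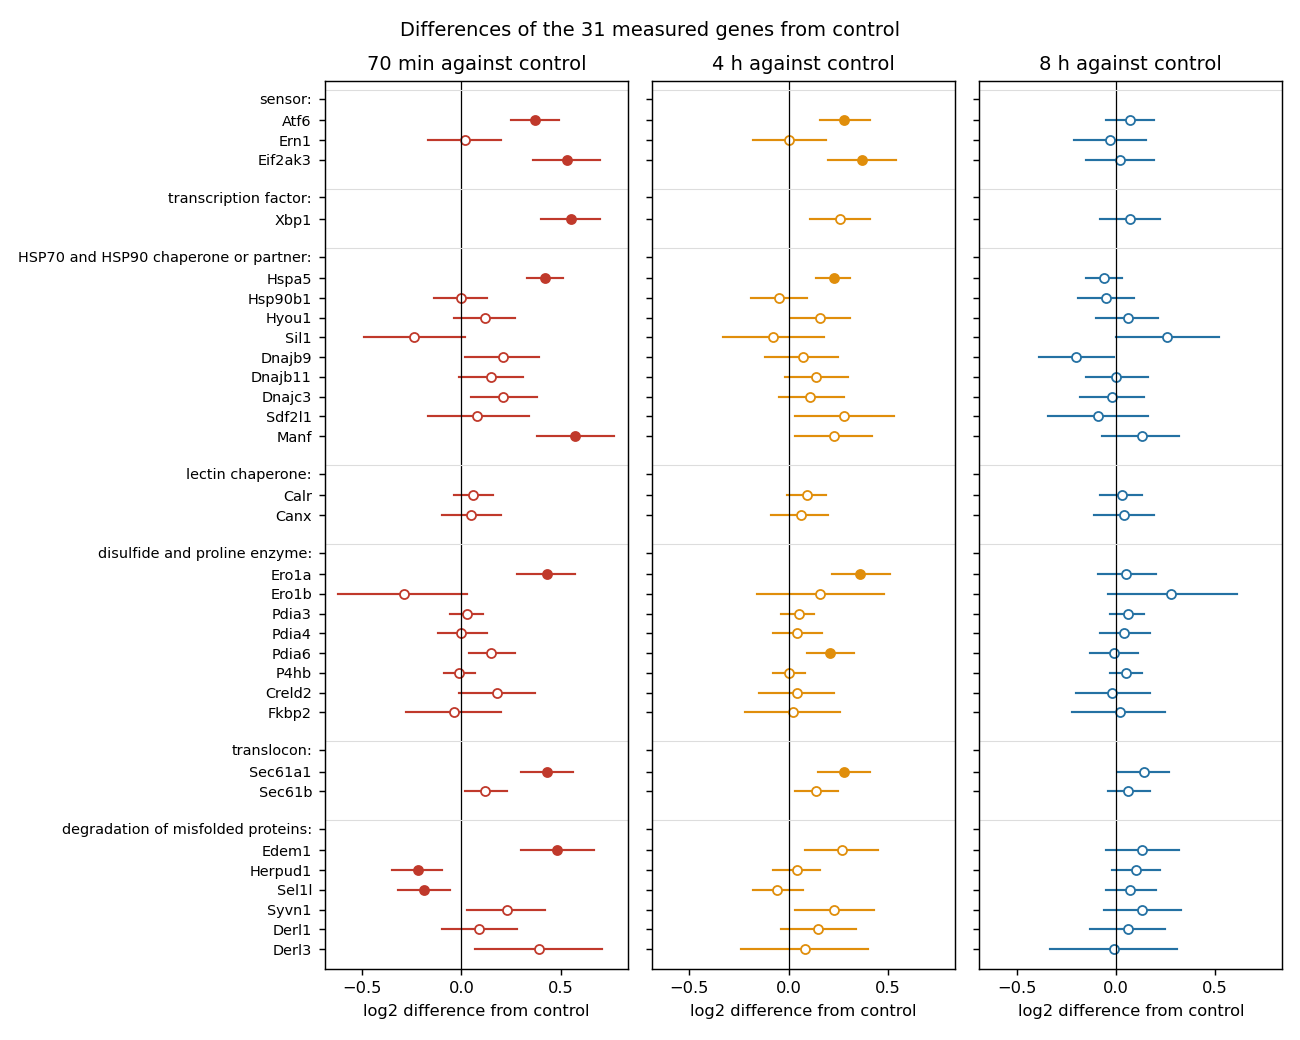
Difference from control in log2 expression (horizontal axis) of each of the 31 genes at 70 min, 4 h and 8 h, grouped by role. Points are limma estimates from 3 arrays against 3, lines are 95% intervals, and filled points are genes with an adjusted p under 0.05. At 70 min 10 points are filled, at 4 h 6, all above 0, and at 8 h 0.

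At 4 h fewer genes passed and all of them were higher. Eif2ak3, Ero1a, Atf6, Sec61a1, Hspa5 and Pdia6 rose by 0.21 to 0.37. That is 6 of 31 against 2.08% of all genes, and 0 were called lower by limma against 1.77%. With only genes at or above the median gene fitted, 478 were higher and 368 lower, beside 378 and 321 of all genes. In that fit 7 of the 29 such genes among the 31 were higher and 0 lower. The 3 genes below 0, Hsp90b1, Sel1l and Sil1, had unadjusted p-values of 0.343 to 0.531. The first 5 risers had also been called at 70 min, while Manf, Xbp1 and Edem1 were called at 70 min and not at 4 h. The median of the 31 genes was 0.14, beside 0.01 for all genes, and 28 lay above 0. Groups did not overlap for 15 genes that were higher, against 11.6% of all genes, and for 1 that was lower, Sel1l, against 8.71%.

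The call of Ero1a at 4 h held in all 24 alternatives. Without control replicate 2 the count of 6 was 2, with each array centred on its median it was also 2, and without a trend in the prior variance it was 1. Pdia6 lost its call in 17 alternatives, among these the fits without any one of control replicates 1 and 2, the 3 arrays of 70 min, the 3 arrays of 4 h and 8 h replicates 2 and 3 (adjusted p up to 0.225). Sec61a1 lost it without control replicate 1 or 2 or 4 h replicate 3 (up to 0.156), Eif2ak3 without control replicate 2 or 4 h replicate 1 or 2 (up to 0.0947), and Atf6 without control replicate 2 (up to 0.0893). These highest adjusted p-values are taken over all 24 alternatives, not only over the arrays named. Each of these genes also lost its call without a trend in the prior variance. Hspa5 lost its call in that fit and with arrays centred on their median (adjusted p up to 0.158).

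At 8 h limma called 0 of the 31 genes higher and 0 lower, here and in all 24 alternatives. Of all genes 0.0220% were called higher and 0.00550% lower in the main fit. In the alternatives, 1 gene was higher and 1 lower without a trend in the prior variance, and 22 and 15 with array weights. An unadjusted p under 0.05 was reached by 3 genes, Sec61a1 at 0.14, Sil1 at 0.26 and Dnajb9 at -0.20, and by 993 of the 18166 genes in all, so that 3 of 31 is near the background. The 8 genes that rose at 70 min were between -0.06 (Hspa5) and 0.14 (Sec61a1). The 95% interval of Hspa5 was -0.15 to 0.03 and that of Eif2ak3 -0.15 to 0.19, so that neither reached its estimate at 70 min. Groups did not overlap for 5 genes that were higher (P4hb, Herpud1, Sel1l, Ero1b and Sil1, against 7.98% of all genes) and for 1 that was lower, Dnajb9 (against 5.24%).

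The later times were also set against 70 min directly. From 70 min to 8 h, 10 genes were called lower, against 6.43% of all genes, and 4 higher, against 9.56%. All 8 risers of 70 min were among the 10, from Eif2ak3, which fell by 0.51, Xbp1 by 0.49 and Hspa5 by 0.48 to Sec61a1 and Atf6, which each fell by 0.30. The risers were chosen on the same 70 min arrays, so their falls from that time are not independent of the choice. Some markers of cell types moved in this comparison as well. Lum, Dcn and Col3a1 rose by 1.57, 1.21 and 0.43 (3 of 12 fibroblast markers). Tek rose by 0.81 (1 of 7 endothelial markers) and Smtn by 0.24 (1 of 6 smooth muscle and pericyte markers). Myh6 fell from a mean of 4.14 to 3.24 (1 of 14 cardiomyocyte markers), both below the median of the probes without a name (4.33). Of 10 macrophage and leukocyte markers 0 passed. Lists with 1 marker called are near the shares over all genes. The part of these markers in the result was not tested.
Dnajb9 was at 7.25, 7.09 and 7.06 in the control arrays, 7.38, 7.30 and 7.34 at 70 min, 7.17, 7.32 and 7.10 at 4 h, and 6.88, 6.96 and 6.96 at 8 h. Its 8 h arrays were the lowest of all, and it fell by 0.41 from 70 min to 8 h (limma adjusted p = 0.00391).
Dnajc3, an inhibitor of PERK as well as a J-domain partner, was at 8.59, 8.57 and 8.58 in the control arrays, 8.98, 8.69 and 8.71 at 70 min, 8.76, 8.63 and 8.69 at 4 h, and 8.59, 8.59 and 8.50 at 8 h. It was highest in 70 min replicate 1 and fell by 0.24 (limma adjusted p = 0.0457).
The 4 genes that were higher at 8 h than at 70 min were Ero1b (0.58), Sil1 (0.50), Herpud1 (0.32) and Sel1l (0.27). Sil1 was at 6.96, 6.90 and 7.10 in the control arrays, 6.84, 6.88 and 6.52 at 70 min, 7.06, 7.03 and 6.63 at 4 h, and 7.26, 7.20 and 7.27 at 8 h. Its 8 h arrays were above all others, and 70 min replicate 3 and 4 h replicate 3 were the lowest. These 4 genes had their lowest mean at 70 min and their highest at 8 h. They were chosen by the test between these times, so the order of 70 min and 8 h was set by the choice. Their share of the 31 genes (12.9%) is near the 9.56% of all genes.

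From 70 min to 4 h Manf, Xbp1 and Hspa5 fell by 0.35, 0.29 and 0.19 and Herpud1 rose by 0.26, so that 3 genes were lower, against 3.15% of all genes, and 1 higher, against 4.48%. In this comparison Lum, Dcn, Col3a1 and Tek rose by 1.09, 0.61, 0.23 and 0.43, and Pln and Pdgfrb fell by 0.36 and 0.32. From 4 h to 8 h Eif2ak3 fell by 0.35, Ero1a by 0.31, Hspa5 by 0.29, and Pdia6 and Atf6 by 0.22 each, 5 genes against 1.54% of all genes, and the markers Lum, Col3a1, Pdgfrb and Smtn rose by 0.47, 0.19, 0.39 and 0.27. The part of these marker shifts was not tested either. From 4 h to 8 h limma called 0 of the 31 genes higher, against 1.97%, and Sil1 and Sel1l, at 0.34 and 0.13, had an unadjusted p under 0.05. The F test over the 4 groups passed for 13 of the 31 genes, against 15.3% of all genes, and 16 genes passed in none of the 6 comparisons.

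Leaving out single arrays moved some of these counts. The adjusted p-values in brackets are the highest over all 24 alternatives, not only over the arrays named. From 70 min to 8 h the 4 genes were 2 without 70 min replicate 3, where Ero1b and Sil1 did not pass. Ero1b also did not pass without 70 min replicate 2 or 8 h replicate 3 (adjusted p up to 0.331), Edem1 did not without 8 h replicate 2 (up to 0.126), and Dnajc3 did not without any one of 8 arrays: the 3 controls, 70 min replicate 1, 4 h replicate 3 and the 3 of 8 h (up to 0.36). From 70 min to 4 h the 3 genes were 1 without 4 h replicate 2 or 3, when Manf and Xbp1 did not pass. Manf also failed without 70 min replicate 2 (up to 0.466) and Xbp1 without 70 min replicate 3 (up to 0.554), while Ero1b joined Herpud1, making 2 higher, without 70 min replicate 1 or 4 h replicate 3. From 4 h to 8 h the 5 genes were 1 without 4 h replicate 2 or 8 h replicate 2, 2 without 4 h replicate 1 or 3, and 3 without control replicate 1, 70 min replicate 2 or 8 h replicate 1 or 3. Hspa5 passed in that comparison without any of the 12 arrays.

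Read against the promoter windows, where 6.76% of all genes were called higher and 7.81% lower at 70 min, 2 of the 12 genes with ERSE or ERSE-II were called higher at 70 min (Hspa5 and Xbp1) and 1 lower (Herpud1), with a median difference of 0.14. Of the 11 genes whose window held neither, 2 were higher (Edem1 and Eif2ak3) and 1 lower (Sel1l), with a median of 0.08. The 1 gene called lower in each of these sets is near the share over all genes. The 8 genes without a matched window held the other 4 risers, with a median of 0.26. The difference between these sets was not tested. In the sequences printed above, Hspa5 and Hsp90b1 both carry the full ERSE, 43 and 72 bases before the start, and their differences at 70 min were 0.42 and 0.00. Hsp90b1 holds 2 elements, the printed one on the opposite strand, and was chosen after its values were seen. The 12 genes with an element ranged from -0.29 to 0.55. Whether the element bears on these differences was not tested.

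**Figure D3:**
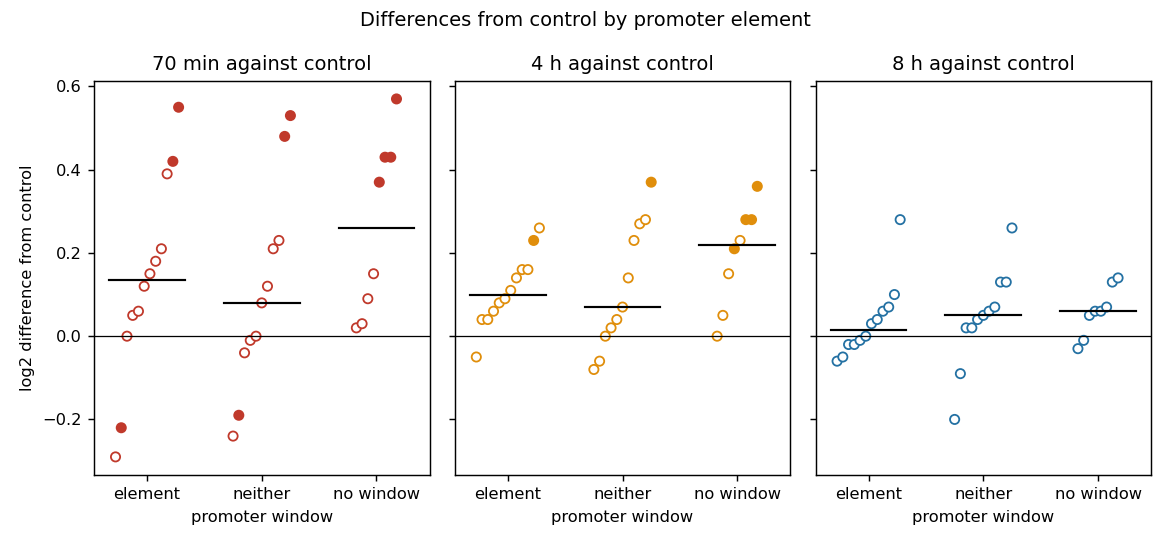
Difference from control in log2 expression (vertical axis) at 70 min, 4 h and 8 h for genes whose promoter window held ERSE or ERSE-II (element, 12 genes), held neither (11 genes) or was not matched (no window, 8 genes). Points are genes, filled where the limma adjusted p was under 0.05, and black bars are medians, which at 70 min were 0.14, 0.08 and 0.26.

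Other genes of the secretory pathway were read from the same fit, in which 6.76% of all genes were called higher and 7.81% lower at 70 min, and 2.08% and 1.77% at 4 h. With lists of this size, 1 or 2 genes called in a direction at 70 min are near those shares. At 70 min, 9 of 26 genes of traffic from the endoplasmic reticulum to the Golgi were called higher and 1 lower. Mcfd2, a cargo receptor subunit, was at 0.62, Sec24a, a coat subunit, at 0.55, the coat GTPase gene Sar1a at 0.41 and Golgb1, a Golgi membrane protein gene, at -0.61. Of 29 further genes of translocation, signal peptide removal and N-glycosylation, 5 were higher and 1 lower, including Ostc (0.55), Ssr1 (0.33), Stt3b (0.29) and Sec62 (-0.42). Of 25 further degradation genes 3 were higher and 2 lower, and Nploc4 and Man1b1 stood at 0.35 and 0.29 while Dnajb2 and Ngly1 were at -0.48 and -0.45. Further folding enzymes and chaperones had 1 of 30 higher, Txndc11 at 0.66, and 5 lower, among them Cdnf, the relative of Manf, at -0.58, with Cnpy4 at -0.40 and Fkbp7 at -0.39. The medians of these 4 lists were 0.14, 0.08, 0.01 and -0.09, beside 0.03 for all genes. Of 20 further regulators Wfs1, an endoplasmic reticulum membrane protein gene, was the 1 called, at 0.35 at 70 min and 0.41 at 4 h.

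Of 14 genes of the PERK and ATF4 arm 3 were called higher and 4 lower at 70 min, against 6.76% and 7.81% of all genes. The median of the 14 was -0.09, beside 0.03 for all genes. Nupr1, a stress-response regulator, fell from a mean of 11.04 to 10.05, Ddit3, which encodes the factor CHOP, fell by 0.68, and Chac1, a glutathione-degrading enzyme gene, by 0.60, while Eif2s1, the subunit that PERK phosphorylates, rose by 0.46. At 4 h Chac1 and Trib3 rose by 0.39 each and Nupr1 fell by 0.48. Of 18 genes of the calcium store 5 were higher and 2 lower at 70 min, with the junctophilin gene Jph2 at 0.74, the calcium pump genes Atp2a2 and Atp2a3 at 0.52 and 0.44, and the channel gene Orai1 at 0.47. At 4 h 1 was higher (Atp2a2, 0.24) and 1 lower (Pln, the inhibitor of that pump, at -0.44). At that time 2.08% of all genes were called higher and 1.77% lower, and in lists of this size 1 gene called in a direction is near those shares. Also at 4 h, 4 of the 29 translocation genes (Ssr1, Stt3b, Srpra and Tram1, at 0.31 to 0.20), 2 of the 25 degradation genes (Vcp and Ufd1, at 0.21 each), 1 of the 26 traffic genes (Sar1a, 0.24) and 0 of the 30 folding genes were called higher, and 0 genes of these 4 lists were called lower. At 8 h 0 genes of these 7 lists passed.

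By array, the median deviation of the 31 genes from the control mean was 0.18, 0.08 and 0.13 in 70 min replicates 1, 2 and 3, and 0.18, 0.12 and 0.11 in those of 4 h. It was 0.08, 0.03 and 0.05 at 8 h and between -0.03 and 0.02 in control. The 70 min arrays with the highest medians over all probes, replicates 2 and 3, had the smaller deviations. Without them and 4 h replicate 3, the median difference of the 31 genes from control was 0.18 at 70 min and 0.14 at 4 h. That 70 min value rests on replicate 1 alone, the array with the largest deviation at this time. In this fit the lone 70 min array is assumed to vary like the other groups.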

How the data were processed

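RNA of 12 samples was hybridised to one-colour arrays after whole-transcript amplification. The authors deposited a table of 36685 probes, summarised by RMA with the Affymetrix Expression Console (version 1.3.1.187), per the submitters' processing notes. RMA corrects background and equalises the distribution of values between arrays, so a change in total RNA per cell is not visible. The deposited values carry no stated unit and were taken as log2 expression from their range (1.19 to 13.63). No filter or genome build is named in the labels.

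By the platform's annotation 18511 probes had 1 symbol, 575 several (not used) and 17599 were unlisted. The probe with the highest mean was kept per gene, giving 18166 genes with no filter on low values. limma 3.58.1 in R 4.3.3 fitted group to all genes and arrays (eBayes with trend, 8 residual degrees of freedom), with two-sided tests and Benjamini-Hochberg adjustment within each of 6 comparisons. The calculation was tested on simulated data. The median SE of a log2 difference was 0.131, with 3 arrays per group.

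The genes, lists, alternatives and naming rule were chosen with earlier results of these data known. Values by array are given for genes called against control and for Hspa5, Xbp1, Atf6, Ern1 and Eif2ak3. Those of Ero1b, Dnajb9, Dnajc3 and Sil1 were added after their values were seen. From other lists at most the 4 called genes with the largest change in a comparison were named. Alternatives covered a replicate block, the prior variance, array weights, normalization, a filter on low genes, probes, arrays left out and groups fitted. Promoter windows came from RefSeq (GRCr8). Figures were drawn with matplotlib 3.10.9.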

Additional observations from a re-analysis of the deposited data

Results flagged for a closer look

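The level of several of the genes differed between SIN-1 groups of different times, by limma's test of the later time against the earlier one. All treated groups share 1 control group of unstated culture time, so time in culture and time with SIN-1 cannot be told apart. Between 70 min and 4 h the log2 difference was -0.19 for Hspa5, -0.35 for Manf, -0.29 for Xbp1 and 0.26 for Herpud1. Between 70 min and 8 h it was -0.48 for Hspa5, -0.45 for Manf, -0.49 for Xbp1, -0.35 for Edem1, -0.41 for Dnajb9, -0.24 for Dnajc3, -0.30 for Sec61a1, -0.30 for Atf6, -0.51 for Eif2ak3 and -0.37 for Ero1a. In the same comparison Herpud1 was at 0.32, Sel1l at 0.27, Ero1b at 0.58 and Sil1 at 0.50. Between 4 h and 8 h it was -0.29 for Hspa5, -0.22 for Pdia6, -0.22 for Atf6, -0.35 for Eif2ak3 and -0.31 for Ero1a. Groups of 3 arrays were too small for a check of single arrays that stand apart.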

How the results depend on the processing

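Of the 39 calls of the 31 genes over the 6 comparisons, 13 held in all 24 alternatives, among them the 8 rises at 70 min, and no call changed sign. The 2 genes lower at 70 min became 0 without the trend in the prior variance or without the 3 arrays of highest median, and 1 with arrays centred, with the array median as a covariate, with all probes tested or with the compared groups alone (0 to 2 with each array left out in turn). The 6 higher at 4 h became 1 without the trend and 2 with arrays centred (2 to 7 with arrays left out). Between 70 min and 4 h the 1 higher became 0 without the trend, with the compared groups alone or without the 3 arrays (1 to 2), and the 3 lower became 0 without the trend, with arrays centred or without the 3 arrays and 1 with all probes (1 to 3). Between 70 min and 8 h the 4 higher became 1 with the covariate and 0 without the 3 arrays (2 to 4), and the 10 lower became 6 with arrays centred (8 to 10). Between 4 h and 8 h the 5 lower became 0 without the trend, 1 with arrays centred or the compared groups alone, 2 with all probes and 3 without the 3 arrays (1 to 5). The cause was not tested, though the fits without arrays or with the compared groups alone have fewer samples.

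With the replicate number as a block 8 genes were higher and 2 lower at 70 min and 5 higher at 4 h. Pdia6 at 4 h and Atf6 between 4 h and 8 h no longer passed, and no other call among the 31 genes was lost. The numbers were not taken to pair arrays, since 5 of 18 same-numbered pairs had deviations correlated above 0.1 (range -0.32 to 0.24) and the own number correlated best in 10 of 36 choices. Of all genes called at 70 min 46.4% were higher, against 33.3% with arrays centred and 57.4% without the 3 arrays. Between 70 min and 4 h the share was 58.7%, against 73.2% with arrays centred and 46.6% with the covariate. Between 70 min and 8 h it was 59.8%, 77% and 47.8%, and between 4 h and 8 h 56.2% and, with arrays centred, 66.3%.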
